A study of Homo sapiens with 9 samples.

Results

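The genes described here are the keratins, the keratin-associated proteins (KRTAPs) and 3 other intermediate filament genes, VIM, NES and DES. They were taken from the deposited count table by symbol: KRT or KRTAP followed by the numbering of these families, plus VIM, NES and DES by name. The rule gave 151 of the 26475 genes of the table, of which 55 were keratins and 93 were KRTAPs. This family was chosen by measured values of these same libraries, in which KRTAP genes stood at very low levels on soft gels. For the KRTAP genes, values in the soft-gel libraries are therefore given as a description, with no test.

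RNA was measured in hTERT-RPE1 cells, an immortalised human retinal pigment epithelial line, in 9 libraries that form 3 groups of 3. All cells were grown for 24 h after seeding on a fibronectin coat. The Control group carried the empty pLKO vector, which the labels also call a Ctrl shRNA, and grew on glass. The sh_PIP4K2B group grew on glass and carried shRNA#1, shRNA#2 or shRNA#3 against PIP4K2B, a lipid kinase, with 1 library for each hairpin. Its spread between replicates thus includes any difference between hairpins. The Soft group carried the empty vector, as Control did, and grew on a 2.3 kPa hydrogel. Nothing in the labels says that the replicates were separate cultures, so p-values measure the spread between these libraries, which may be technical. In bulk RNA, fewer cells of a type and less RNA per cell cannot be told apart.

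Keratins form the intermediate filaments of epithelial cells as obligate pairs of an acidic type I chain and a basic type II chain. Simple epithelia use KRT8 with KRT18, often with KRT7 or KRT19, whereas the hair keratins (KRT31 to KRT40 and KRT81 to KRT86) build the hair shaft. KRTAPs are small proteins, rich in cysteine or in glycine and tyrosine, that crosslink hair keratin filaments in the cortex and cuticle of hair. Vimentin (VIM) forms the filaments of mesenchymal cells and of many cultured lines, nestin (NES) those of progenitor cells and desmin (DES) those of muscle. Type I keratin genes other than KRT18 lie together on chromosome 17 around several KRTAP families. Type II genes lie on chromosome 12, and KRT18 lies there with them.

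The libraries held between 19217346 and 24020799 estimated counts, so that 3 counts, taken as the floor of detection, stood for 0.131 to 0.148 CPM. CPM, the counts scaled to a common library size, are normalised by the TMM method, and all values with an error are mean ± SD over 3 libraries. The targeted gene, PIP4K2B, stood at 39.6%, 33.5% and 30.0% of the Control mean with hairpins 1, 2 and 3, and at 97.5% to 104% in Soft. Across all tested genes the median SD of log2 CPM within a group was 0.077 in Control and 0.071 in Soft, but 0.328 with the hairpins. The fit shared 1 estimate of the spread over the groups, which for Soft against Control is wider than the spread of those libraries. For the hairpin libraries it is narrower than their own spread. Fitted alone, Control and sh_PIP4K2B gave 5 calls among 13331 genes, against 763 of 13784 in the shared fit. Calls in sh_PIP4K2B, of members and of listed genes alike, carry this limit.

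Most of the family had no counts. Of the 151 members, 50 had at least 1 count in some library and 101 were at 0 in all 9. Only 31 exceeded 3 counts in a library and 23 reached 10. Of the 55 keratins 30 had counts, and of the 93 KRTAPs 17 did. The filter on low counts, which asks for about 0.459 CPM in at least 3 libraries, left 18 members to test: 12 keratins, 4 KRTAPs, VIM and NES. Just inside the filter was KRTAP4-8, with 16, 20 and 20 counts in Control, 2, 8 and 3 with the hairpins and none in Soft. Among those just outside, with 2 libraries over this level, was KRTAP4-12, with 8, 17 and 16 counts in Control, 0, 2 and 7 with the hairpins and none in Soft. DES had 2 counts in all. KRTAP1-1, KRTAP1-5 and KRTAP4-8 passed the filter only through the groups in which they were high, so a difference in Soft was built into their passing. KRTAP4-8 passed through Control alone, so its difference with the hairpins was built in as well and is given as a description.

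Per kilobase of transcript, VIM was by far the most abundant member in Control, at 3990 ± 20.02 CPM per kilobase (RPKM). KRT18 followed at 638 ± 22.2 RPKM and KRT8 at 605 ± 28.0 RPKM, which differed by about their spread. The fourth most abundant member was no filament gene but KRTAP2-3, at 60.6 ± 3.32 RPKM, above KRT81 at 26.6 ± 0.690, KRT80 at 24.2 ± 0.508, KRT10 at 18.6 ± 1.22 and KRT34 at 13.2 ± 0.479 RPKM. KRT15 (9.59 ± 0.336), KRT7 (7.80 ± 0.160), NES (4.23 ± 0.223) and KRTAP1-1 (3.25 ± 0.274 RPKM) came next. KRT81 and KRT80, and KRT15 and KRT7, were each separated by more than their SDs.

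With the PIP4K2B hairpins, 1 of the 18 tested members passed the threshold (adjusted p below 0.01, edgeR), which was KRT18 and was lower. Of all 13784 genes tested, 5.54% passed in this comparison, 2.76% as higher and 2.77% as lower, so the count among the members was close to that background. Without KRTAP4-8, whose passing of the filter fixed its direction, 1 of 17 passed, the median log2 fold change was -0.70 (-0.82 with it), against 0.05 for all genes, and 7 of the 17 had an unadjusted p below 0.05, against 33.2% of all genes. On Soft, 5 of the 14 tested members other than KRTAPs passed, against 30.6% of all genes. KRT32 was higher (15.8% of all genes) and KRT18, KRT8, KRT81 and KRT34 were lower (14.8% of all genes). The median of these 14 members was -0.29, against 0.01 for all genes. Between Soft and sh_PIP4K2B, 4 of the 14 passed, against 30.0% of all genes: KRT15, KRT32 and KRT7 were higher in Soft (14.5% of all genes) and KRT34 was lower (15.5% of all genes), with a median of -0.02 against -0.03. The shares of called members on Soft were thus near the background as well. Both comparisons with Control share the same 3 Control libraries.

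**Figure D1:**
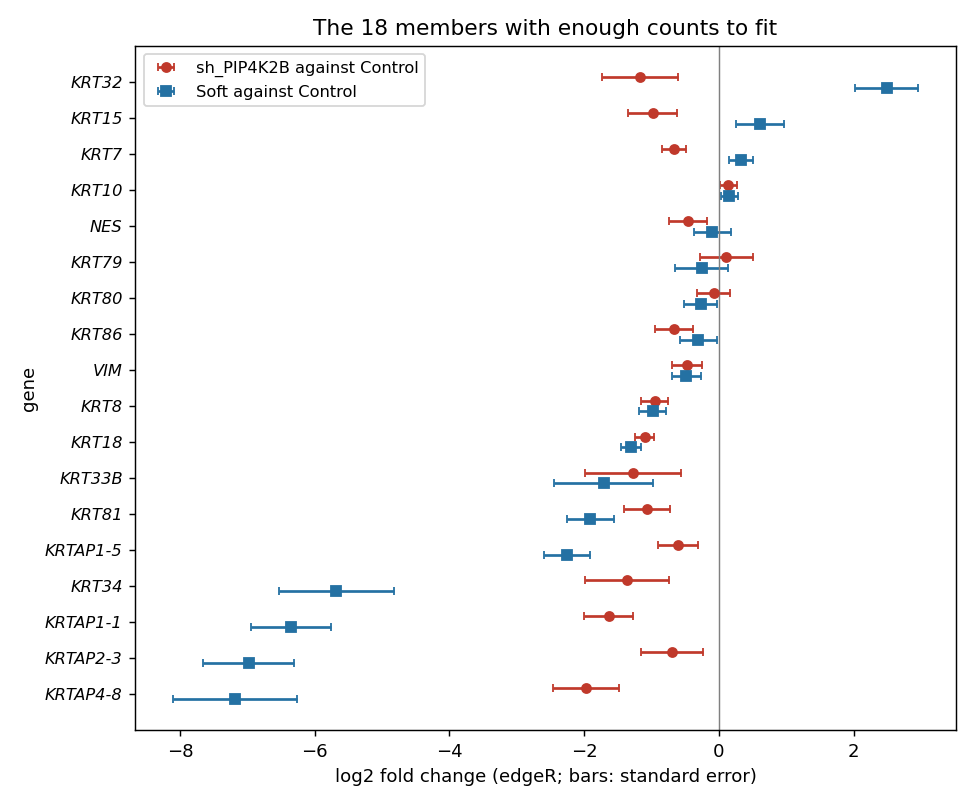
Log2 fold change (horizontal axis, edgeR estimate with its standard error as a bar) of the 18 tested members, against Control, for sh_PIP4K2B (red circles) and Soft (blue squares). The 4 KRTAP genes and KRT34 lie farthest to the left on Soft, and KRT32 lies farthest to the right at 2.49. The KRTAP4-8 value on Soft comes from 0 counts and depends on the prior count of the fit.

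KRT18, the type I chain of simple epithelia, was at 937, 891 and 877 CPM in the 3 Control libraries, at 495, 427 and 336 CPM with hairpins 1, 2 and 3, and at 384, 362 and 347 CPM in Soft. No library of either group overlapped Control. In sh_PIP4K2B this was a log2 fold change of -1.10 (SE 0.147, adjusted p = 0.00182, edgeR), and it was -1.31 (SE 0.148, adjusted p = 1.38e-04) for Soft. Soft against sh_PIP4K2B did not pass, at -0.20 (SE 0.145, adjusted p = 0.275, edgeR). The sh_PIP4K2B call was lost when any 1 Control library was left out (adjusted p 0.0142, 0.0137 and 0.0118 without Control 1, 2 and 3, edgeR) and when only these 2 groups were fitted (adjusted p = 0.0231), with the log2 fold change between -1.08 and -1.13 in these 4 fits.

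KRT8, its type II partner, was at 1136, 1058 and 1044 CPM in Control, at 627, 675 and 372 CPM with the hairpins and at 559, 536 and 544 CPM in Soft. Again no library overlapped Control, and hairpin 3 gave the lowest value for both chains. On Soft the log2 fold change reached -0.98 (SE 0.200, adjusted p = 0.0033, edgeR), and leaving out any 1 Control or Soft library took the adjusted p past the threshold, to at most 0.0172. In sh_PIP4K2B it was -0.95 (SE 0.200, adjusted p = 0.013, edgeR), which missed the threshold. That value passed with DESeq2 (adjusted p = 9.01e-05) and without any 1 of the hairpins (adjusted p 0.00914, 0.00541 and 0.00148 without hairpin 1, 2 and 3, edgeR). KRT8 and KRT18 lie side by side on chromosome 12 and overlap on opposite strands. Of the possible 75-base reads of KRT8, 18.8% also occur in another transcript, most often the pseudogene KRT8P3, and for KRT18 this share was 6.50%, so part of their counts depends on how such reads were assigned.

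The ratio of the pair differed less between groups than its levels. Per kilobase, KRT8 to KRT18 was 0.961, 0.940 and 0.943 in Control, 1.00, 1.25 and 0.875 with hairpins 1, 2 and 3, and 1.16, 1.17 and 1.24 in Soft. Soft lay above Control in every library, while the hairpins spread on both sides. Together KRT8 and KRT18 made up 92.3% ± 0.282 of the summed keratin level per kilobase in Control. In sh_PIP4K2B the share was 89.2% ± 2.26 and on the gels 88.0% ± 0.272. The summed level of all 55 keratins was 1347 ± 50.1 RPKM in Control, against 683 ± 152 with the hairpins and 641 ± 19.04 on the gels.

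**Figure D2:**
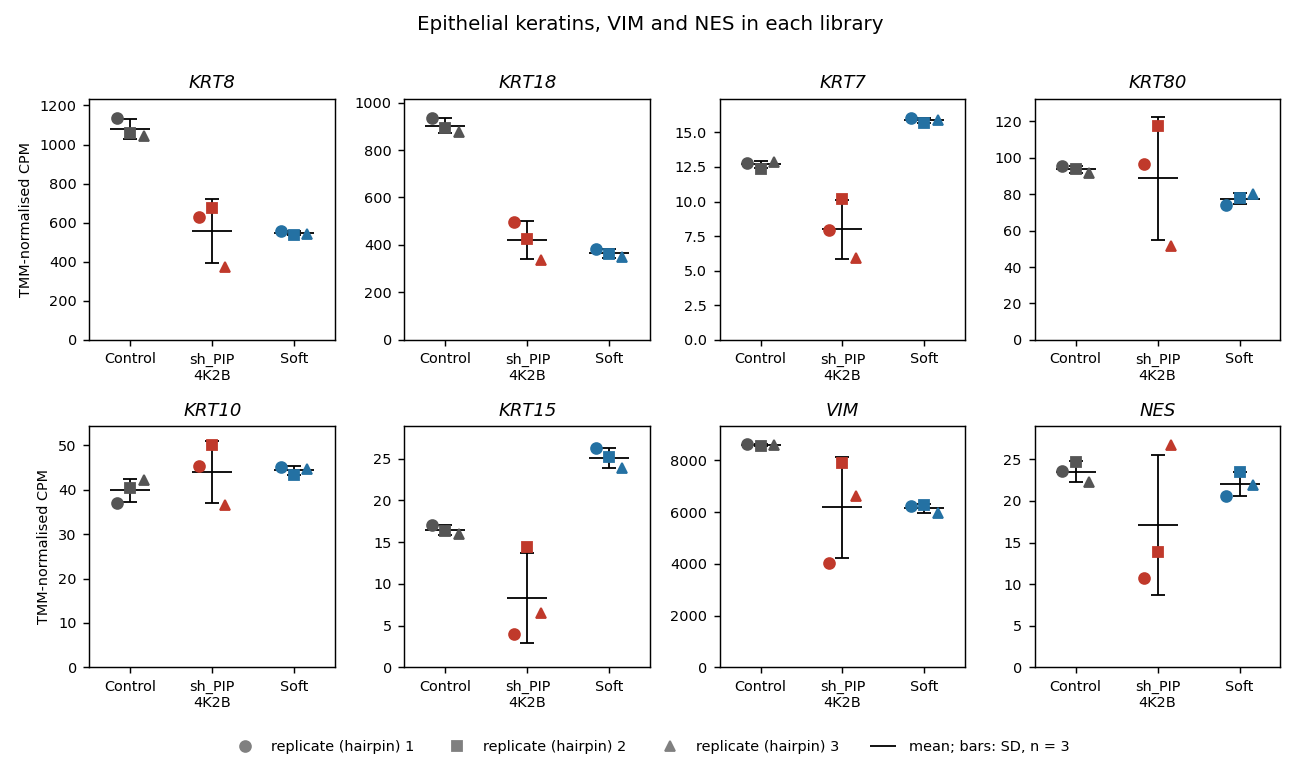
TMM-normalised CPM (vertical axes, linear and from 0, a different range in each panel) of 8 members in each of the 9 libraries, with the mean and SD of each group in black. Marker shape gives the replicate, which in sh_PIP4K2B is the hairpin. KRT8 and KRT18 lie lower in all 6 sh_PIP4K2B and Soft libraries than in Control, and the red points of KRT80, KRT10 and NES reach both sides of the black Control points.

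KRT7, another simple epithelial type II keratin, lay on opposite sides of Control in the other 2 groups. It was at 12.8, 12.4 and 12.8 CPM in Control, at 7.92, 10.2 and 5.88 CPM with the hairpins and at 16.1, 15.7 and 15.9 CPM in Soft, with no overlap between the groups. Neither comparison with Control passed, at -0.67 (SE 0.178, adjusted p = 0.0328, edgeR) for sh_PIP4K2B and 0.32 (SE 0.175, adjusted p = 0.155) for Soft. The value for sh_PIP4K2B passed without hairpin 2 (adjusted p = 0.00332, edgeR) and with DESeq2 (adjusted p = 0.0047). Soft against sh_PIP4K2B did pass, at 0.99 (SE 0.178, adjusted p = 0.00181, edgeR), except in the fit of these 2 groups alone (adjusted p = 0.0122). None of the 75-base reads of KRT7 occurs in another transcript, although KRT86 overlaps it on the same strand.

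KRT15, a type I keratin of basal and progenitor keratinocytes, had the same arrangement. It was at 17.04, 16.3 and 15.9 CPM in Control, at 4.01, 14.4 and 6.53 CPM with the hairpins and at 26.3, 25.2 and 23.9 CPM in Soft. All Soft libraries lay above and all hairpin libraries below Control, with hairpin 2 close to it. Soft against sh_PIP4K2B gave 1.60 on the log2 scale (SE 0.363, adjusted p = 0.00609, edgeR), but -0.98 (SE 0.361, adjusted p = 0.0916) and 0.61 (SE 0.351, adjusted p = 0.179) against Control. Without hairpin 2 the value for sh_PIP4K2B became -1.64 with a call (adjusted p = 0.00108, edgeR). The value of 1.60 lost its call when any 1 Control library, any 1 Soft library or hairpin 3 was left out, and in the fit of those 2 groups, with an adjusted p of at most 0.0249.

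KRT80, a type II keratin that is widely expressed in epithelia, and KRT10, the type I keratin of the suprabasal epidermis, did not pass in any comparison, although KRT80 was called in Soft against sh_PIP4K2B without hairpin 3, at -0.48 (adjusted p = 0.00358, edgeR). KRT80 was at 95.6, 93.7 and 91.7 CPM in Control, at 96.8, 118 and 51.6 CPM with the hairpins and at 74.1, 78.2 and 80.4 CPM in Soft, where it lay below Control in every library at a log2 fold change of -0.27 (SE 0.240, adjusted p = 0.378, edgeR). KRT10 was at 37.1, 40.4 and 42.2 CPM in Control, at 45.4, 50.2 and 36.5 CPM with the hairpins and at 45.2, 43.3 and 44.8 CPM in Soft, at 0.14 (SE 0.127) and 0.15 (SE 0.127) on the log2 scale. KRT79, which is expressed in sebaceous and hair follicle ducts, was near the floor, between 0.414 and 0.989 CPM in all libraries. The 33 keratins outside the simple epithelial group (KRT7, KRT8, KRT18, KRT19 and KRT20) and the hair group summed to 152 ± 0.552 CPM in Control, to 142 ± 43.96 with the hairpins and to 149 ± 2.06 on the gels.

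VIM was at 8633, 8548 and 8602 CPM in Control, at 4046, 7887 and 6628 CPM with the hairpins and at 6236, 6266 and 5952 CPM in Soft. Every library of the other 2 groups lay below Control. The log2 fold changes of -0.47 (SE 0.219, adjusted p = 0.164, edgeR) for sh_PIP4K2B and -0.48 (SE 0.219, adjusted p = 0.0982) for Soft did not pass. On Soft the call was gained without hairpin 1 and in a fit of the 2 groups alone, in which 70.7% of all genes passed. NES was at 23.7, 24.7 and 22.2 CPM in Control, at 10.7, 13.9 and 26.7 CPM with the hairpins and at 20.7, 23.5 and 21.9 CPM in Soft, and it passed in no comparison. Without hairpin 3 it was called at -0.94 in sh_PIP4K2B against Control (adjusted p = 0.00213, edgeR) and at 0.83 in Soft against sh_PIP4K2B (adjusted p = 0.00107). Since the keratins were lower by more, VIM relative to all keratins per kilobase was 2.97 ± 0.100 in Control and 4.45 ± 0.125 on the gels. It was 4.42 ± 1.83 with the hairpins, ranging from 2.46 with hairpin 1 to 6.07 with hairpin 3.

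Hair keratins were also present in these cells. Of 17 hair keratin genes 11 had counts, and their summed level was 77.7 ± 1.45 CPM in Control, against 35.5 ± 16.9 with the hairpins and 21.04 ± 1.46 on the gels. KRT81, a type II hair cortex keratin, made up most of this sum. It was at 52.7, 50.8 and 50.2 CPM in Control, at 14.3, 42.1 and 16.9 CPM with the hairpins and at 14.9, 13.1 and 12.9 CPM in Soft, which gave a log2 fold change of -1.91 (SE 0.351, adjusted p = 0.00192, edgeR). Leaving out Soft 2 or Soft 3 took this call past the threshold, to an adjusted p of at most 0.0114. With the hairpins it was -1.07 (SE 0.341, adjusted p = 0.0592, edgeR), and -1.72 with a call without hairpin 2 (adjusted p = 3.06e-04). KRT86, its neighbour, was at 2.19, 2.55 and 2.40 CPM in Control, at 1.01, 2.07 and 1.43 CPM with the hairpins and at 1.87, 1.57 and 2.32 CPM in Soft and passed in no comparison. Of the 75-base reads of KRT81, 36.6% also occur in another transcript, mostly KRT86, and the same held for 32.7% of those of KRT86, so their split is uncertain.

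KRT34, a type I hair cortex keratin, was at 21.4, 22.4 and 20.8 CPM in Control, at 1.75, 4.87 and 18.5 CPM with hairpins 1, 2 and 3 and at 0.228, 0.619 and 0.402 CPM in Soft. Soft was far below every other library, and the hairpins ran from 8.13% of the Control mean (hairpin 1) through 22.6% (hairpin 2) to 86.1% (hairpin 3). Soft against Control came to -5.68 on the log2 scale (SE 0.853, adjusted p = 6.52e-04, edgeR), and the summed counts, 27 against 1446, were 52.1-fold lower (95% interval 35.7 to 79.3, counting error only). The call held in all 15 alternative fits that included the gene. In sh_PIP4K2B it was -1.36 (SE 0.630, adjusted p = 0.164, edgeR) and became -2.71 with a call without hairpin 3. Soft against sh_PIP4K2B gave -4.32 (SE 0.852, adjusted p = 0.00298, edgeR), a call that was lost without any 1 Soft library and in the fit of these 2 groups (adjusted p of at most 0.0166). KRT33B, another type I cortex keratin next to KRT34, was at 1.26, 1.54 and 1.44 CPM in Control, at 0.0460, 0.337 and 1.38 CPM with the hairpins and at 0.593, 0.238 and 0.447 CPM in Soft and passed in no comparison. Without hairpin 3 it was called in sh_PIP4K2B at -2.87 (adjusted p = 0.00938, edgeR).

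KRT32, a type I keratin of the hair cuticle, was the only tested member that passed as higher on Soft. It was at 0.605, 0.834 and 0.743 CPM in Control, at 0.0921, 0.723 and 0.148 CPM with the hairpins and at 4.47, 3.62 and 4.29 CPM in Soft. The Soft libraries lay far above all others. On the log2 scale they were higher by 2.49 (SE 0.466, adjusted p = 0.0021, edgeR) than Control and by 3.67 (SE 0.521, adjusted p = 5.1e-04) than sh_PIP4K2B. Without any 1 Control library, Soft 1 or Soft 3 the first value missed the threshold, at an adjusted p of at most 0.0143, whereas the second kept its call in the 15 alternative fits that included the gene, with an adjusted p of at most 0.00449. Against Control, sh_PIP4K2B differed by -1.17 (SE 0.568, adjusted p = 0.183, edgeR), and by -2.55 with a call without hairpin 2 (adjusted p = 0.00222).

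**Figure D3:**
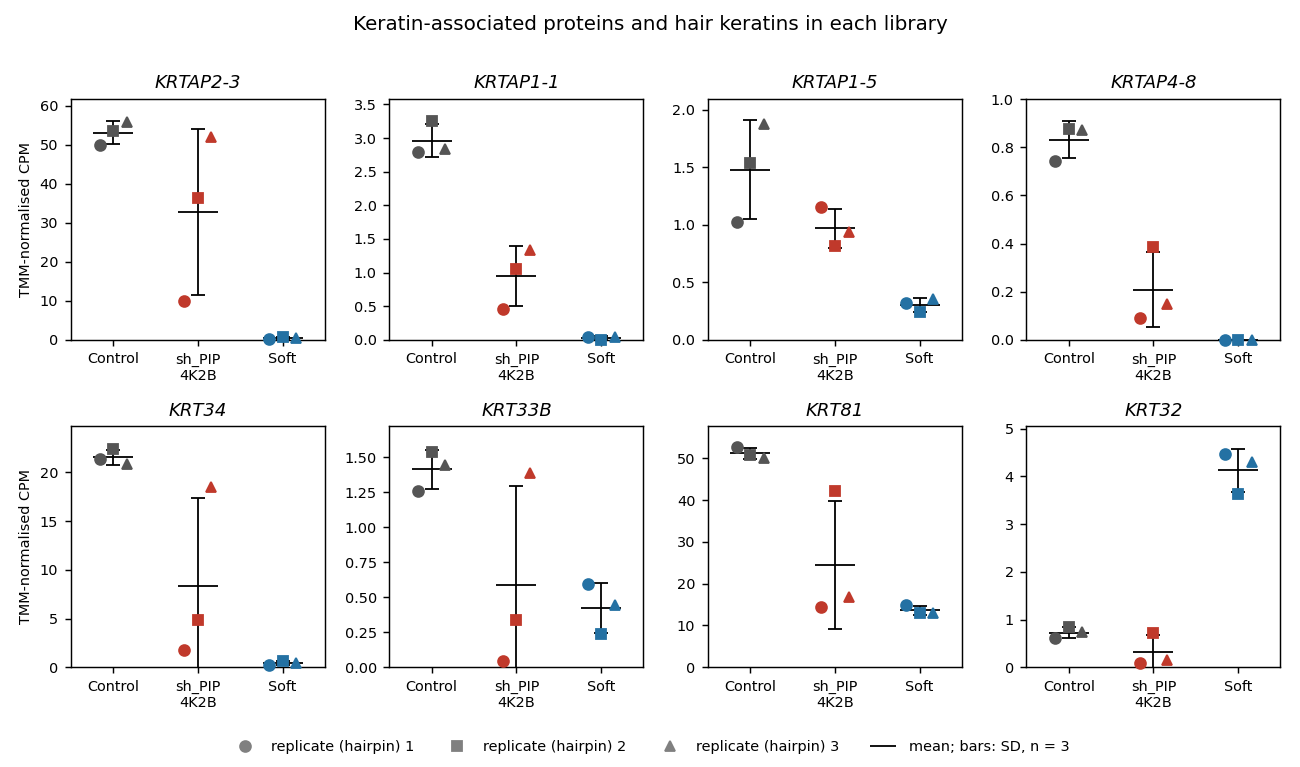
TMM-normalised CPM (vertical axes, linear and from 0, a different range in each panel) of 4 KRTAP genes and 4 hair keratins in each of the 9 libraries, with the mean and SD of each group in black. Marker shape gives the replicate, which in sh_PIP4K2B is the hairpin. All Soft points lie below all Control points in every panel but KRT32, where they lie above, and hairpin 3 (triangle) is close to Control for KRTAP2-3, KRT34 and KRT33B.

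The KRTAP1 and KRTAP2 genes lie within 39.9 kb on chromosome 17, at chr17:41026026-41065879 (GRCh38), all on the minus strand. The table holds 4 genes of each family, of which 6 had counts and 3 could be tested. KRTAP2-3 carried 89.5% of all KRTAP counts in Control. It was at 49.9, 53.5 and 55.7 CPM in Control, at 9.90, 36.4 and 52.0 CPM with hairpins 1, 2 and 3 and at 0.182, 0.619 and 0.447 CPM in Soft. The Soft libraries held 4, 13 and 10 counts, against 1072, 1220 and 1274 in Control, which was 128-fold lower in sum (95% interval 88.1 to 195, counting error only). The hairpin libraries stood at 18.7%, 68.6% and 97.9% of the Control mean, so that hairpin 3 overlapped Control. Against Control they gave -0.70 on the log2 scale (SE 0.460, adjusted p = 0.322, edgeR), which did not pass. Of the 75-base reads of KRTAP2-3, 36.1% also occur in KRTAP2-4, which had 1 count in all.

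KRTAP1-1 was at 2.79, 3.25 and 2.84 CPM in Control, at 0.460, 1.06 and 1.33 CPM with the hairpins and at 0.0456, 0 and 0.0447 CPM in Soft. The 3 groups did not overlap. The Soft libraries held 2 counts in sum against 199 in Control, a ratio of 96.8 (95% interval 26.4 to 805, counting error only). The hairpins gave -1.64 on the log2 scale (SE 0.369, adjusted p = 0.0173, edgeR), which missed the threshold but passed with DESeq2 (adjusted p = 0.00105) and without hairpin 3 (adjusted p = 0.00693, edgeR). KRTAP1-5 was at 1.02, 1.54 and 1.88 CPM in Control, at 1.15, 0.819 and 0.939 CPM with the hairpins and at 0.319, 0.238 and 0.358 CPM in Soft. It was the least reduced of the tested KRTAPs on Soft, 4.86-fold lower in sum (20 against 100 counts, 95% interval 2.99 to 8.30), and it overlapped Control with hairpin 1.

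The other genes of the cluster gave few or no counts. KRTAP2-1 had 3, 4 and 1 counts in Control, 0, 1 and 4 with the hairpins and none in Soft. KRTAP2-2 had 5, 1 and 0 counts in Control, 2, 0 and 1 with the hairpins and 2, 0 and 0 in Soft. Of their 75-base reads, 58.3% and 55.1% occur in other transcripts, so these counts are uncertain. KRTAP1-3 and KRTAP1-4 were at 0 in every library. At this depth, silence of these genes and very low expression could not be told apart.

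The first 120 bases upstream of 6 of these genes are shown because they lie in the same locus and take in the 4 tested KRTAPs and KRT34, all low on Soft, and KRT32, high on Soft. They are RefSeq sequences of GRCh38.p14, written 5′ to 3′ on the minus strand up to the base before the annotated start. They cover chr17:41027209-41027328 for KRTAP1-5, chr17:41041451-41041570 for KRTAP1-1, chr17:41060115-41060234 for KRTAP2-3, chr17:41098143-41098262 for KRTAP4-8, chr17:41382307-41382426 for KRT34 and chr17:41467387-41467506 for KRT32. Capitals mark the letters TATAAA.
KRTAP1-5: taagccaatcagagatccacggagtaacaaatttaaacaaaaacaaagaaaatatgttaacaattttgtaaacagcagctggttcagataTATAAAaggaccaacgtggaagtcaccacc
KRTAP1-1: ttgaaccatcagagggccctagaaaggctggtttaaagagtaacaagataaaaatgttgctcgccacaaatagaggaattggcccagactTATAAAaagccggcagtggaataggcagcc
KRTAP2-3: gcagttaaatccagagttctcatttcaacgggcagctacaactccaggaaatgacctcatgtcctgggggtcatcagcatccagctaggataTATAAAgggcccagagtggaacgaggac
KRTAP4-8: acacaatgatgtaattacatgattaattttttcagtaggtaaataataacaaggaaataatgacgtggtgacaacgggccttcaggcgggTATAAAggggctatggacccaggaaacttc
KRT34: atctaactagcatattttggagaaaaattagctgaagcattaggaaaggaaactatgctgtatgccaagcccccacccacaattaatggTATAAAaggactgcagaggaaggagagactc
KRT32: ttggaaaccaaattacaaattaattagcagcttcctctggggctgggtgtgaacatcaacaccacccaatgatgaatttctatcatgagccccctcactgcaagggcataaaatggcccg

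TATAAA, the core of a TATA box, began 30 bases before the start in KRTAP1-5, KRTAP1-1 and KRTAP4-8, 28 bases before it in KRTAP2-3 and 31 bases before it in KRT34. It was not in the KRT32 window. Within 250 bases upstream, on either strand, TATAAA occurred in 10.72% of 35116 RefSeq promoters, in 62 of 79 KRTAP promoters (78.5%) and in 21 of 38 keratin promoters (55.3%). It is thus common among the promoters found for these families, also in genes without counts. The keratin promoters include repeated entries of KRT40 and KRT85. No entry was found for KRT18, KRT7, KRT15, KRT80, KRT81 or KRT86, which were expressed here. The AP-1 motif TGANTCA (6.57% of all promoters) and the TEAD motif GGAATG (11.89%) matched none of the 6 promoters within 250 bases. CCAAT (32.01% of all promoters) matched in KRTAP1-1, KRTAP1-5, KRTAP4-8 and KRT32. A match describes letters and not a binding site. KRT33B and KRT10 hold TATAAA at 28 and 29 bases as well. On Soft neither passed, with KRT33B lower at -1.71 (adjusted p = 0.0813, edgeR) and KRT10 at 0.15 (adjusted p = 0.343).

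KRTAP4 genes, which lie next to the KRTAP2 genes, followed the same order of groups. KRTAP4-8 was at 0.745, 0.878 and 0.874 CPM in Control and at 0.0921, 0.385 and 0.148 CPM with the hairpins, with no overlap, and was at 0 in Soft. On Soft it was at least 18.2-fold lower in sum, taking 3 counts over the group as the floor. In counts the hairpins held 13 against 56 in Control, with no test. Of its 75-base reads 11.6% occur in other transcripts. KRTAP4-12 was at least 13.3-fold lower on Soft, with 0 against 41 counts. Summed over the 11 KRTAP4 genes there were 105 counts in Control, 29 with the hairpins and 0 on the gels.

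The order Control, sh_PIP4K2B, Soft held for each expressed KRTAP family in the summed counts. KRTAP1 had 299, 120 and 22 counts in these groups and KRTAP2 had 3580, 2030 and 29. The remaining 74 KRTAPs, 49 of them on chromosome 21, together had 2, 4 and 5 counts. All 93 KRTAPs summed to 55.3, 60.4 and 62.1 CPM in Control, to 11.8, 38.9 and 55.3 CPM with the hairpins and to 0.730, 0.952 and 0.894 CPM in Soft. Only the first 2 hairpins lay clearly below Control, as hairpin 3 was level with the lowest Control library.

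**Figure D4:**
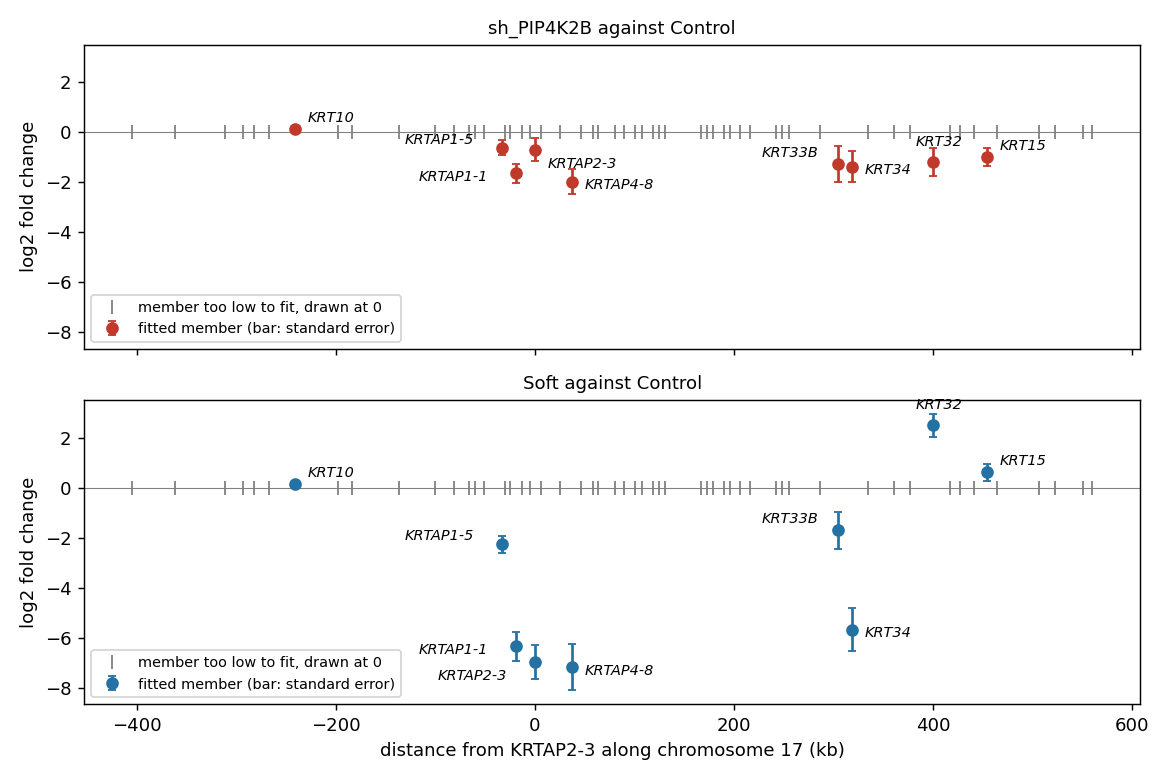
Log2 fold change against Control (vertical axes, edgeR, bars give the standard error) of the members on chromosome 17 by their distance in kb from KRTAP2-3 (horizontal axis), for sh_PIP4K2B (top) and Soft (bottom). Grey ticks at 0 mark members with too few counts to fit. On Soft KRTAP1-1, KRTAP2-3, KRTAP4-8 and KRT34 lie between -7.18 and -5.68, while KRT32 and KRT15 in the same locus lie above 0.

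The members on chromosome 17 did not all differ in 1 direction. This locus spans 970.2 kb, at chr17:40654665-41624842, and holds 61 members, of which 32 had counts and 9 were tested. KRT34 lies 318.4 kb from KRTAP2-3 and was lower on Soft, while KRT32 lies 81.8 kb beyond KRT34 and was higher. KRT10 at the other end was at a log2 fold change of 0.15. No gene of the table that is not a member lies within 100000 bases of the KRTAP1 and KRTAP2 genes. Of 8 non-member genes of the table in the wider locus or within 100000 bases of it, 4 were tested and 3 were higher on Soft, against 15.8% of all genes, none was lower, and none was called in sh_PIP4K2B.

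Members below the filter with 10 or more counts in a library were KRT13, KRT16, KRT19, KRT83 and KRTAP4-12. KRT13, a type I keratin of mucosal epithelia, had 0, 2 and 0 counts in Control, 2, 0 and 0 with the hairpins and 9, 11 and 16 in Soft. KRT16, a type I keratin of stressed epidermis, had 3, 6 and 5 counts in Control, 2, 1 and 3 with the hairpins and 11, 8 and 15 in Soft. Both were highest in Soft in every library. Only Soft libraries reached 10 counts for these 2 genes, so being higher there was built into their choice and is a description. The fit with no filter put KRT13 at 3.96 on Soft and KRT16 at 2.36 in Soft against sh_PIP4K2B. KRT14, a type I keratin of basal keratinocytes, fell in that fit by 3.55 on Soft (adjusted p = 0.00987, edgeR), where 21.3% of all genes passed. It had 6, 5 and 5 counts in Control and 1, 0 and 0 in Soft. KRT19 (5, 2 and 12 counts in Control, 0, 6 and 2 with the hairpins, 7, 10 and 6 in Soft) overlapped between all groups. KRT83, a hair keratin, had 5, 4 and 6 counts in Control and 2, 1 and 1 in Soft, which did not overlap, and 1, 10 and 0 with the hairpins, which overlapped both. KRT38, a hair keratin singled out after its values were seen, had 4, 5 and 5 counts in Soft and none elsewhere, at least 4.80-fold higher than in Control.

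The 3 hairpins did not move the members alike. Hairpin 2 was nearest to Control for 9 of the 18 tested members, among them KRT81 (82.2% of the Control mean), VIM (91.8%) and KRT32 (99.3%). Hairpin 3 was nearest for 6, namely KRT10, KRT33B, KRT34, KRTAP1-1, KRTAP2-3 and NES, and hairpin 1 for 3. KRT18 stood at 54.9%, 47.4% and 37.3% with hairpins 1, 2 and 3. With 1 library for each hairpin, differences between them have no replicate check.

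Partners of keratin filaments were examined as a list of 28 desmosomal, plakin and keratin binding genes, of which 20 were tested. In sh_PIP4K2B 1 of the 20 passed, against 5.54% of all genes, namely DSP (desmoplakin, which anchors keratins to desmosomes), at -0.76 (adjusted p = 0.00623, edgeR). On Soft 6 of the 20 passed, against 30.6% of all genes, 3 higher and 3 lower. PPL (periplakin) rose by 4.63, JUP (plakoglobin) by 2.70 and DSC2 (a desmosomal cadherin) by 1.69, and PKP2 (plakophilin 2) fell by 2.30, DSP by 0.86 and DST (dystonin) by 0.60, all log2 fold changes with an adjusted p of at most 0.00311 (edgeR). The median of the list was -0.13 in sh_PIP4K2B and -0.20 on Soft. Between Soft and sh_PIP4K2B 6 passed, against 30.0% of all genes, again 3 in each direction. These counts were at the background.

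Of 12 other intermediate filament genes 6 were tested. The background for each list below is the share of all genes, 5.54% in sh_PIP4K2B and 30.6% on Soft. None of the 6 passed in sh_PIP4K2B (2 had an unadjusted p below 0.05, edgeR, against 33.2% of all genes), and 3 were higher on Soft: GFAP at 4.29, BFSP1 at 1.59 and IFFO1 at 0.69. GFAP had 0, 2 and 0 counts in Control, 3, 0 and 4 with the hairpins and 19, 14 and 12 in Soft. It passed the filter through Soft alone, so its direction on Soft was built in and is a description. Of 32 transcription factors known to act on keratin genes, 20 were tested. In sh_PIP4K2B 3 were higher (JUNB at 1.74, SNAI1 at 1.18 and TRPS1 at 0.75) and on Soft 6 were higher and 1, FOSL1, was lower by 0.95, so that the 7 of 20 on Soft were near the background. The list medians were 0.37 and 0.32, against 0.05 and 0.01 for all genes. HOXC13 and FOXN1, which drive hair keratin genes in the follicle, had 7 and 0 counts in all. Of 28 cornified envelope genes 5 were tested. PADI1, a protein deiminase, was lower in both groups, at -2.43 in sh_PIP4K2B and -2.03 on Soft, and PADI3, which acts in hair follicles, was higher on Soft at 3.08. PADI3 had 7, 2 and 3 counts in Control, 3, 2 and 0 with the hairpins and 38, 31 and 33 in Soft. It too passed the filter through Soft alone, so its direction on Soft was built in.

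Markers of other cell types were checked beside these results. Defining epithelial markers were at or near 0, with 1 count of CDH1, 5 of EPCAM and 0 of GRHL2 in all 9 libraries, and 2 of the 15 on the list were tested. The list summed to 11.4 to 12.4 CPM in Control, 7.71 to 12.5 with the hairpins and 72.04 to 86.8 on the gels, where ITGB4 (integrin beta 4, which links keratins to the substrate at hemidesmosomes) rose by 4.34 (adjusted p = 1.37e-04, edgeR). The other tested marker, COL17A1 (a hemidesmosomal collagen), made up most of the Control sum at 7.29 ± 0.660 CPM and was at 4.64 ± 1.87 with the hairpins and 5.06 ± 0.390 on the gels, which did not pass (-0.65, adjusted p = 0.121, and -0.53, adjusted p = 0.13, edgeR). All 15 mesenchymal markers were tested. None passed in sh_PIP4K2B (5 had an unadjusted p below 0.05 with edgeR, against 33.2% of all genes). On Soft 7 were higher and 1 lower, against 15.8% and 14.8% of all genes. LUM, among the 7, passed the filter through Soft alone, so its direction was built in. It had 4, 1 and 2 counts in Control and 14, 11 and 17 in Soft. The 15 markers summed to 29700 to 31120 CPM in Control, 11180 to 41100 with the hairpins and 32850 to 38180 on the gels. Most of this sum was FN1, at 27567 ± 687, 23371 ± 14262 and 34216 ± 2807 CPM in these groups. FN1 passed in neither comparison with Control (adjusted p = 0.706 and 0.534, edgeR). Of 14 retinal pigment epithelium markers, RPE65, TYR, DCT and TTR had 2, 1, 0 and 0 counts in all, and RLBP1 had counts in Soft alone (8, 11 and 7). Others on the list were clearly expressed. In the Control libraries MITF was at 35.95, 34.3 and 39.3 CPM, RDH5 at 22.1, 19.05 and 18.9 CPM and OTX2 at 10.3, 10.8 and 11.7 CPM. The 14 markers summed to 66.1 to 72.2 CPM in Control, 48.9 to 64.6 with the hairpins and 77.2 to 81.6 on the gels. Of 6 tested, 2 passed in each comparison with Control. In sh_PIP4K2B (5.54% of all genes) RDH5 was lower at -2.26 and OTX2 higher at 0.65. On Soft (30.6% of all genes) OTX2 was higher at 1.77 and BEST1 at 2.23. BEST1 had 1, 7 and 2 counts in Control, 11, 9 and 5 with the hairpins and 17, 14 and 16 in Soft. It passed the filter only because of its Soft libraries, so its direction on Soft was built in. The part of these markers in the keratin results was not tested.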

How the data were processed

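RNA of 9 hTERT-RPE1 libraries was prepared by the authors with a stranded mRNA kit and sequenced as pairs of 75 nt. The authors aligned reads to GRCh38/hg38 with STAR, and the submitters' processing notes also name Salmon. The tool that made the table and its annotation are not given in the sources used here. The deposited values are estimated counts for each gene and library, with no normalisation. Of them 12.3% were not whole, and all were rounded here.

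The whole table was fitted with edgeR 4.0.16 in R 4.3.3 (TMM, filterByExpr, quasi-likelihood F test, 1 fit over 9 libraries). Benjamini-Hochberg adjustment ran over all 13784 genes tested, with a threshold of 0.01. Standard errors came from the F statistic. Scripts were tested on simulated data. Alternatives were no filter, 10 counts in every library, library size or upper quartile scaling, DESeq2 1.42.0, fits of 2 groups, a replicate block, a threshold of 0.05 and leaving out each library. RPKM divide CPM by the length of the canonical GENCODE transcript on GRCh38. Positions, overlaps and shared 75-base sequences come from that annotation and promoters from RefSeq.

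Named members are VIM, NES, DES, all KRTAP1 and KRTAP2 genes, members past the threshold in any comparison, members with a group mean of at least 10 CPM, members with at least 10 counts that the filter left out, and those at its edge. Other genes were named after their values were seen. From each context list at most the 3 highest and 3 lowest called genes are named, with defining markers. The members and all lists were chosen with earlier results of these data known.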

Additional observations from a re-analysis of the deposited data

Results flagged for a closer look

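For 4 keratins the responses of sh_PIP4K2B and Soft differed from each other in a direct test of the 2 groups (edgeR, 14 members tested, 3 libraries each). Of all genes 30.0% passed in this comparison, so the count was near that background. Among alternative fits that included the gene, the call was lost in 8 of 16 for KRT15 and 4 of 15 for KRT34. It was lost in 1 of 16 for KRT7 and 0 of 15 for KRT32. In the fit of these 2 groups alone only KRT32 passed, against 16.1% of all genes. KRT32 was higher in Soft than in sh_PIP4K2B by 3.67 on the log2 scale (adjusted p = 5.1e-04), KRT15 by 1.60 (adjusted p = 0.00609) and KRT7 by 0.99 (adjusted p = 0.00181), in 3 of 3 Soft libraries each. KRT34 differed by -4.32 (adjusted p = 0.00298), with all Soft libraries below all hairpin libraries. Hairpin 2 was nearest to Soft for the first 3 genes and hairpin 1 for KRT34. Cause was not tested.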

How the results depend on the processing

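Counts of called members were 1 in sh_PIP4K2B, 5 on Soft and 4 between Soft and sh_PIP4K2B, and they changed with the choices below. With no filter the counts were 1, 7 and 6, against 3.57%, 21.3% and 20.6% of all genes. KRT13 and KRT14 were added on Soft, and KRT13 and KRT16 between the groups. Requiring 10 counts in every library gave 3 on Soft and 2 between the 2 groups (both 31.1% of all genes), since KRT32 and KRT34 were then not tested. DESeq2 called 4 in sh_PIP4K2B (KRT18, KRT7, KRT8 and KRTAP1-1), where it called 15% of all genes. Fits of the 2 groups alone gave 0 in sh_PIP4K2B (7 with an unadjusted p below 0.05, edgeR), 10 on Soft and 1 between the groups, against 0.0375%, 70.7% and 16.1% of all genes. KRT7, KRT15, KRT33B, KRT80 and VIM gained their calls on Soft there. A threshold of 0.05 gave 5 in sh_PIP4K2B: KRT18, KRT8, KRT7, KRTAP1-1 and KRTAP4-8. The direction of KRTAP4-8 was built in by the filter, and the share of all genes at that threshold was not counted. Leaving out 1 library gave 0 to 7 in sh_PIP4K2B, 2 to 7 on Soft and 2 to 6 between the groups. The 7 on Soft came without hairpin 1 (45.6% of all genes). The 6 between the groups came without hairpin 1 (38.4%) or hairpin 3 (37.7%). The count in sh_PIP4K2B was 0 without any 1 Control library (at most 1.15% of all genes), 2 without hairpin 1 (11.9%), 7 without hairpin 2 (14.4%, KRTAP4-8 among the 7) and 6 without hairpin 3 (12.7%). On Soft it was 3 without Control 1, Control 3, Soft 1 or Soft 2 and 2 without Soft 3 (17.9% to 19.4% of all genes), and between the groups it was 2 without Soft 1 (17%) or Soft 3 (16.8%). The cause was not tested.

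Directions turned only for members without a call. Between Soft and sh_PIP4K2B, VIM was at 0.0084 with 10 counts in every library, 0.0272 with library size scaling, 0.0602 with upper quartile scaling and 0.025 with the replicate block, and KRT8 at 0.0451 with upper quartile scaling and 0.0027 with the replicate block. NES on Soft was at 0.0107 with library size scaling, which moved the median of all genes to 0.14 in sh_PIP4K2B and 0.12 on Soft. Leaving out 1 library also turned some values. Between the groups VIM ran from -0.2495 to 0.2023, KRT8 from -0.2625 to 0.1275, KRT80 from -0.4783 to 0.0605, KRT10 from -0.1165 to 0.1143 and KRT33B from -1.0054 to 1.1439. In sh_PIP4K2B KRT79 ran from -0.2654 to 0.4341 and KRT80 from -0.3371 to 0.1928, and on Soft KRT79 ran from -0.4273 to 0.0649.

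Replicate numbers did not pair the samples (correlations of deviations -0.10 to 0.04), and a fit with the replicate block called the same counts of members, 1, 5 and 4. At this depth a member under 0.131 CPM cannot be told from 0.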
